A study of Mus musculus with 41 samples.

Results

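The fibroblast growth factor (FGF) pathway was described in RNA sequencing data of mouse mesothelioma, a tumor of the lining of the chest cavity. The genes were 41 named members of the pathway: 18 ligands, 4 intracellular FGF-like factors, the receptors Fgfr1 to Fgfr4 with Fgfrl1 and the co-receptor Klb, the adaptors Frs2 and Frs3, and 11 feedback and target genes. They were chosen by name, and 40 of the 41 had a row among the 27197 genes of the count table. Fgf22 was not analysed here. The RNA came from 6 cell lines and 9 tumors. The 3 BNC lines (JB81, JB91, and JB97) had the genotype Bap1-/-;Nf2-/-;Cdkn2ab-/- and the 3 NC lines (JB84, JB87, and JB93) the genotype Nf2-/-;Cdkn2ab-/-, so that both groups lacked Nf2 and Cdkn2ab and the BNC lines lacked Bap1 besides. According to the study's methods, tumors were induced in mice of mixed background by intrathoracic injection of an adenovirus with Cre recombinase under the ubiquitous CMV promoter, the mice had received cyclosporine A around the infection, and lines grew out of pieces of tumor in medium with serum and murine epidermal growth factor (EGF). Of Cdkn2ab, the Ink4a and Ink4b products were lost from the germline on, whereas Arf was conditional and lost with Cre. The mixed background of the mice was FVB, Bl6, and 129Ola. The labels name 5 BNC and 4 NC tumors, but the tumor columns (22, B1, B2, B13, B14, B19, B27, B28, and B45) do not carry the genotype, so BNC and NC tumors were not compared. Ages at collection were not given in the labels.

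FGF ligands are secreted proteins that bind receptor tyrosine kinases together with heparan sulfate on the cell surface. The activated receptor phosphorylates the adaptor Frs2, which passes the signal on to the RAS, RAF, MEK, and ERK kinases. ERK signaling in turn raises transcription of its own inhibitors, the Sprouty (Spry), Spred, and Dusp6 genes, and of the ETS factors Etv1, Etv4, and Etv5, so these genes are commonly read as a transcriptional record of FGF signaling, although other growth factors such as EGF also feed the same ERK kinases. FGF signals between mesothelium and mesenchyme are known from lung development. A loop in which a cell makes both a ligand and its receptor is called autocrine. Receptor genes are spliced into forms that differ in which ligands they bind, and the counts per whole gene used here do not separate these forms.

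The 15 libraries held between 8158740 and 23936922 counts. Levels are given as RPKM, reads per kilobase of exon scaled to the size of the library, with 1 TMM scaling (a correction for library composition) over all 15 libraries. The limit that 3 counts set was between 0.124 and 0.856 CPM (counts scaled to library size by the same factors), and it covers counting error only. Both groups of lines read at most 0.470 RPKM of Cdkn2a, and Bap1, of which only part is deleted, was at 8.62, 8.84, and 7.89 RPKM in JB81, JB91, and JB97 against 12.2, 12.9, and 12.1 RPKM in JB84, JB93, and JB87. Within each group 2 lines were close to identical. Of 10511 genes with at least 100 reads in JB81 and JB91, 5 differed more than 2-fold, and of 10545 genes in JB84 and JB93, 8 did. None of the 18 and 16 members read at this depth differed more than 2-fold within these pairs. Within the groups, 6 of 18 did between JB81 and JB97 and 8 of 17 between JB84 and JB87. Between JB97 and JB87, which are of different groups, 7 of 18 did. The lines therefore held 2 distinct patterns per group, and p-values measure the spread between libraries that may not be independent. The mesothelial markers moved with the groups. Their summed level over 9 genes was 21.6, 21.8, and 364 RPKM in JB81, JB91, and JB97 and 1117, 1179, and 1063 RPKM in JB84, JB93, and JB87. In JB81 and JB91 Wt1 (19.9 RPKM in both) carried nearly all of that sum, and the other 8 markers, with Msln and Krt18 among them, were each under 0.7 RPKM. In JB97, Msln, Pdpn, Krt8, Krt18, and Krt19 lay below every NC line. Upk1b (122 RPKM), Upk3b (45.8 RPKM), Lrrn4, and Wt1 lay within the range of the NC lines there. The part of these marker levels in the results below was not tested.

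The promoter windows of the called genes Fgf5, Fgfr2, and Spry2, each from 250 bases before to 50 after the annotated start, are shown because these genes differed between BNC and NC lines and their CG content differs. They are RefSeq sequences of build GRCm38.p6, printed in the direction of transcription with CG dinucleotides in capitals.
Fgf5 (chr5:98253934-98254233, plus strand): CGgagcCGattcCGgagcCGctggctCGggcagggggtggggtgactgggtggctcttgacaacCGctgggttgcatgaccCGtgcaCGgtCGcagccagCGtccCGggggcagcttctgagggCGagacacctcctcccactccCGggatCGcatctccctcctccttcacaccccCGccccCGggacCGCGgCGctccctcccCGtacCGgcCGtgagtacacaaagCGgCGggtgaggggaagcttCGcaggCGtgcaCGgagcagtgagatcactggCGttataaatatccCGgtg
Fgfr2 (chr7:130266759-130267058, minus strand): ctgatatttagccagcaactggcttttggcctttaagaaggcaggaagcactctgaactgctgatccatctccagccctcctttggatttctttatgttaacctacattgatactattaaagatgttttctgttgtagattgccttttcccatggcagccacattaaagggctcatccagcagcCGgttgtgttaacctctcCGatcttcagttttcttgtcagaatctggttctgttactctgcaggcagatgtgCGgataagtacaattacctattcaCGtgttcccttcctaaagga
Spry2 (chr14:105896770-105897069, minus strand): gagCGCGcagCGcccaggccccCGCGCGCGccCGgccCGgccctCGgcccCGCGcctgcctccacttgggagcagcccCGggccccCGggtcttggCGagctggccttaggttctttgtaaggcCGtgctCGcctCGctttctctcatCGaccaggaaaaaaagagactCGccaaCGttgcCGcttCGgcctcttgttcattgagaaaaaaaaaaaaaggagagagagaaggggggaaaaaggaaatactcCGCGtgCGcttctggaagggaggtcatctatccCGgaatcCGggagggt
The Fgf5 window held 29 CG dinucleotides and the Spry2 window 28, numbers reached by 12.9% and 14.2% of all 32841 windows. The Fgfr2 window held 4, a number reached by 68.6% of windows. Fgfr2 lies on the minus strand, and the gene model used here for its exon length reaches to about position 133123000. The printed window is thus at 1 RefSeq start inside that model, and its CG content describes that window only. Windows were found for 30 members, 39 windows in all, with a median of 19 CG dinucleotides against 7 over all windows. None was found for Etv4, the remaining called gene, or for Fgfr1. The letters CCGGAA, a core bound by ETS factors, were searched on both strands. They stood in 6 of the 39 member windows, beside 14.9% of all windows. The windows of Fgf5 and Spry2 were among the 6, and that of Fgfr2 was not. No window of Dusp6 or Etv5 held these letters, which says only that they are not in this window.

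The first comparison asked which members differed between BNC and NC lines. Of the 40 members 23 had enough reads to be tested, and 4 of them (17.4%) had an adjusted p under 0.05 in the quasi-likelihood test of edgeR, with Benjamini-Hochberg adjustment over all genes. Over all 12376 genes tested 14.2% passed, so the share among the members was near the background. Fgf5 and Fgfr2 were higher in BNC lines (5.78% of all genes were called higher) and Spry2 and Etv4 were lower (8.45% of all genes were called lower). The median log2 fold change of the 23 members was -0.29, and that of all genes was -0.0023. At an adjusted p under 0.01 and more than 2-fold change 0 members passed, against 1.1% of all genes. In 9 of the 23 members (39.1%) the groups of lines did not overlap, 4 with BNC above NC and 5 with NC above BNC, against 41.4% of all genes tested.

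**Figure D1:**
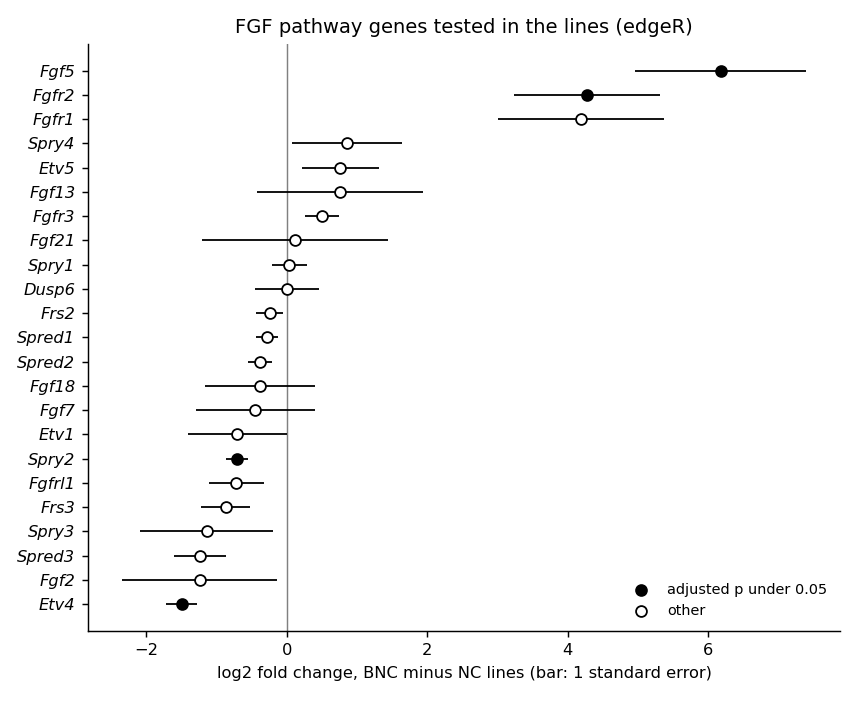
Log2 fold change (BNC minus NC lines) of the 23 FGF pathway genes tested by edgeR, with bars of 1 standard error; filled points have an adjusted p under 0.05. Fgf5 (6.18) and the receptors Fgfr2 (4.28) and Fgfr1 (4.19) lie far to the right, while most feedback genes lie within 1 unit of 0 and Etv4 (-1.50) lies lowest.

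In all BNC lines the main receptors lay above the NC lines. Fgfr2, a receptor of epithelial and mesenchymal cells depending on its splice form, was at 10.5, 10.7, and 6.27 RPKM in JB81, JB91, and JB97 and at 0.122, 0.114, and 1.19 RPKM in JB84, JB93, and JB87. All BNC lines lay above all NC lines, and JB87 stood well above the other NC lines. Its log2 fold change came to 4.28 (standard error 1.04, adjusted p = 0.0459, edgeR). Fgfr1, the receptor most widely read in mesenchymal cells, followed the same order. It was at 13.9, 15.6, and 9.73 RPKM in JB81, JB91, and JB97 and at 0.127, 0.128, and 1.91 RPKM in JB84, JB93, and JB87. Its log2 fold change of 4.19 (standard error 1.18) missed the threshold (adjusted p = 0.0637, edgeR) but passed with DESeq2 (adjusted p = 1.63e-04), which called 29.8% of all genes. Without JB87, the NC line with the higher level, the edgeR test called it too (log2 fold change 6.67, adjusted p = 5.89e-04), at 51.9% of all genes called, and Fgfr2 had a log2 fold change of 6.28 (adjusted p = 8.87e-04). The NC group in that fit was JB84 and JB93, a near-identical pair. Its small spread enters these p-values, which therefore add no independent evidence.

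The other receptors did not pass the test. Fgfr3, known from cartilage and epithelia, was at 1.18, 1.31, and 1.04 RPKM in JB81, JB91, and JB97 and at 0.695, 0.841, and 0.927 RPKM in JB84, JB93, and JB87, a small gap without overlap (log2 fold change 0.50, standard error 0.24, adjusted p = 0.189, edgeR). Fgfr4 had 1, 1, and 0 counts in JB81, JB91, and JB97 and 1, 1, and 3 counts in JB84, JB93, and JB87, so it was not detectable at this depth. Fgfrl1, a receptor without a kinase domain, was at 2.50, 3.16, and 4.48 RPKM in JB81, JB91, and JB97 and at 6.52, 6.87, and 2.9961 RPKM in JB84, JB93, and JB87, with JB87 among the BNC lines (log2 fold change -0.72, standard error 0.39, adjusted p = 0.233, edgeR). Summed over Fgfr1 to Fgfr4, the receptors with a kinase came to 25.6, 27.6, and 17.04 RPKM in JB81, JB91, and JB97 and to 0.962, 1.10, and 4.09 RPKM in JB84, JB93, and JB87. Klb, the co-receptor of the hormone-like FGFs, had at most 1 count in any line.

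Few ligands were read in culture. Of 17 ligands with a row, 12 were too low to be tested and 9 had at most 3 counts in every line. Fgf5, a ligand known for ending the growth phase of hair, was at 7.55, 6.90, and 0.601 RPKM in JB81, JB91, and JB97 and at 0.101, 0.0181, and 0.0926 RPKM in JB84, JB93, and JB87. Its log2 fold change came to 6.18 (standard error 1.22, adjusted p = 0.0291, edgeR), and the lowest BNC line, JB97, was still above every NC line. Fgf7, a mesenchymal ligand for the epithelial form of Fgfr2, crossed the groups: it was at 2.19, 1.77, and 10.2 RPKM in JB81, JB91, and JB97 and at 8.39, 8.42, and 1.90 RPKM in JB84, JB93, and JB87 (log2 fold change -0.45, standard error 0.85, adjusted p = 0.72, edgeR). Fgf18, a ligand of skeletal and lung growth, was at 0.731, 0.839, and 3.16 RPKM in JB81, JB91, and JB97 and at 1.06, 1.22, and 3.77 RPKM in JB84, JB93, and JB87, highest in JB97 and JB87 (log2 fold change -0.38, standard error 0.78, adjusted p = 0.74, edgeR). The other tested ligands, Fgf2 and Fgf21, stayed under 0.75 RPKM in every line. Among the intracellular factors, which do not signal through the receptors, Fgf13 was at 4.21, 4.43, and 7.81 RPKM in JB81, JB91, and JB97 and at 4.79, 4.65, and 0.0384 RPKM in JB84, JB93, and JB87, so that JB87 alone was low. The 17 members that were not tested reached at most 0.434 RPKM in any line, the level of Fgf11 in JB84.

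**Figure D2:**
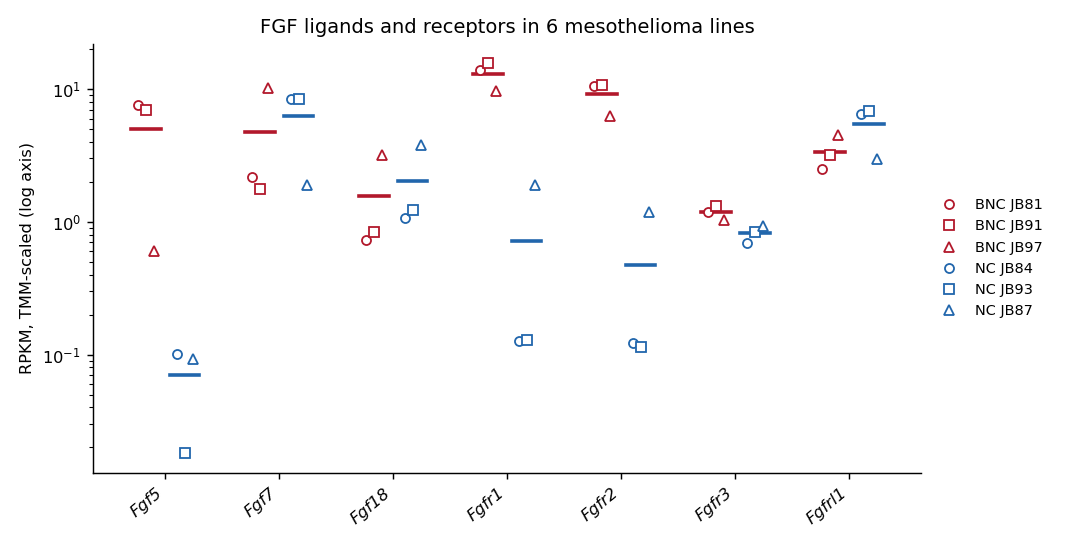
Levels (RPKM, TMM-scaled, log axis) of 3 ligands and 4 receptors in the 3 BNC lines (red) and 3 NC lines (blue); each marker is 1 line and each horizontal bar the mean of a group. Fgf5, Fgfr1, Fgfr2, and Fgfr3 have all BNC lines above all NC lines, while Fgf7 and Fgf18 overlap.

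Ligand and receptor levels were then set side by side within each line. JB81 and JB91 read Fgf5 at 7.55 and 6.90 RPKM together with Fgfr1 and Fgfr2, each above 10 RPKM, so a ligand and its receptors were present in the same culture. In JB97 Fgf5 was low (0.601 RPKM) and Fgf7 was the ligand with the highest level (10.2 RPKM), again beside Fgfr1 and Fgfr2. JB84 and JB93 read Fgf7 at 8.39 and 8.42 RPKM with Fgfr1 and Fgfr2 near 0.1 RPKM. JB87 had low levels of both, with Fgf7 at 1.90 RPKM, Fgf18 at 3.77 RPKM, Fgfr1 at 1.91 RPKM, and Fgfr2 at 1.19 RPKM. Which splice form of the receptors was made, and whether the ligand was secreted, was not measured.

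The adaptors were present in all lines. Frs2, the docking protein that links FGF receptors to RAS, was at 10.1, 9.70, and 9.71 RPKM in JB81, JB91, and JB97 and at 12.9, 12.9, and 8.66 RPKM in JB84, JB93, and JB87 (adjusted p = 0.385, edgeR). Its relative Frs3 was at 0.291, 0.265, and 0.240 RPKM in JB81, JB91, and JB97 and at 0.342, 0.535, and 0.567 RPKM in JB84, JB93, and JB87, a gap without overlap that did not pass (adjusted p = 0.135, edgeR).

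Of the 11 feedback and target genes, 0 were called higher in BNC lines by edgeR (0 also at an unadjusted p under 0.05, and 0 with DESeq2), 2 were called lower, and 9 did not pass. Over all genes 5.78% were called higher and 8.45% lower. The 2 of 11 called lower were a larger share than that, but 11 genes are too few to tell these counts from the background. The median log2 fold change of the 11 was -0.38. Dusp6, the phosphatase that inactivates ERK, had the highest level of the 11. It was at 68.0, 71.6, and 29.4 RPKM in JB81, JB91, and JB97 and at 41.4, 41.2, and 84.8 RPKM in JB84, JB93, and JB87. The highest line was thus an NC line and the lowest a BNC line, and the log2 fold change came to 0.0031 (standard error 0.453, adjusted p = 0.997, edgeR). Spry4, an inhibitor of RAS activation, was at 3.28, 3.72, and 0.653 RPKM in JB81, JB91, and JB97 and at 0.900, 0.724, and 2.60 RPKM in JB84, JB93, and JB87. JB97 was the lowest BNC line, as for Fgf5, and JB87 was the highest NC line (log2 fold change 0.86, standard error 0.78, adjusted p = 0.452, edgeR). Etv5, an ETS factor, was at 18.5, 19.5, and 4.86 RPKM in JB81, JB91, and JB97 and at 8.91, 10.4, and 5.79 RPKM in JB84, JB93, and JB87, with JB97 the lowest of the 6 (log2 fold change 0.76, standard error 0.55, adjusted p = 0.348, edgeR). Without JB97 it was called higher in BNC lines (log2 fold change 1.18, adjusted p = 0.0376, edgeR), at 25.4% of all genes called, so whether a feedback gene was called higher turned on that line. The BNC group in that fit was JB81 and JB91, a near-identical pair, whose small spread enters the p-value.

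The called feedback genes were Etv4 and Spry2. Etv4, an ETS factor like Etv5, was at 3.68, 3.95, and 5.98 RPKM in JB81, JB91, and JB97 and at 11.5, 13.5, and 12.7 RPKM in JB84, JB93, and JB87. The groups did not overlap, and the log2 fold change came to -1.50 (standard error 0.22, adjusted p = 0.0156, edgeR). Spry2, an inhibitor of the same step as Spry4, was at 8.58, 8.78, and 8.92 RPKM in JB81, JB91, and JB97 and at 13, 13.014, and 16.4 RPKM in JB84, JB93, and JB87, also without overlap (log2 fold change -0.71, standard error 0.16, adjusted p = 0.0389, edgeR). Spry1 was at 3.27, 3.11, and 3.32 RPKM in JB81, JB91, and JB97 and at 2.47, 2.96, and 3.90 RPKM in JB84, JB93, and JB87 (log2 fold change 0.04, adjusted p = 0.923, edgeR). The Spred genes, which block RAF activation, did not pass: Spred1 was at 14.1, 13.4, and 12.8 RPKM in JB81, JB91, and JB97 and at 18.3, 16.3, and 13.9 RPKM in JB84, JB93, and JB87, and Spred2 was at 15.5, 15.991, and 13.6 RPKM against 20.9, 20.9, and 16.024 RPKM in the same order. Spred3 had a log2 fold change of -1.24 that passed with DESeq2 (adjusted p = 0.0154) but not with edgeR (adjusted p = 0.072). Etv1 was low in all lines, at 0.252, 0.240, and 0.0866 RPKM in JB81, JB91, and JB97 and at 0.407, 0.439, and 0.0871 RPKM in JB84, JB93, and JB87 (adjusted p = 0.493, edgeR). Spry3 was under 0.93 RPKM in every line.

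**Figure D3:**
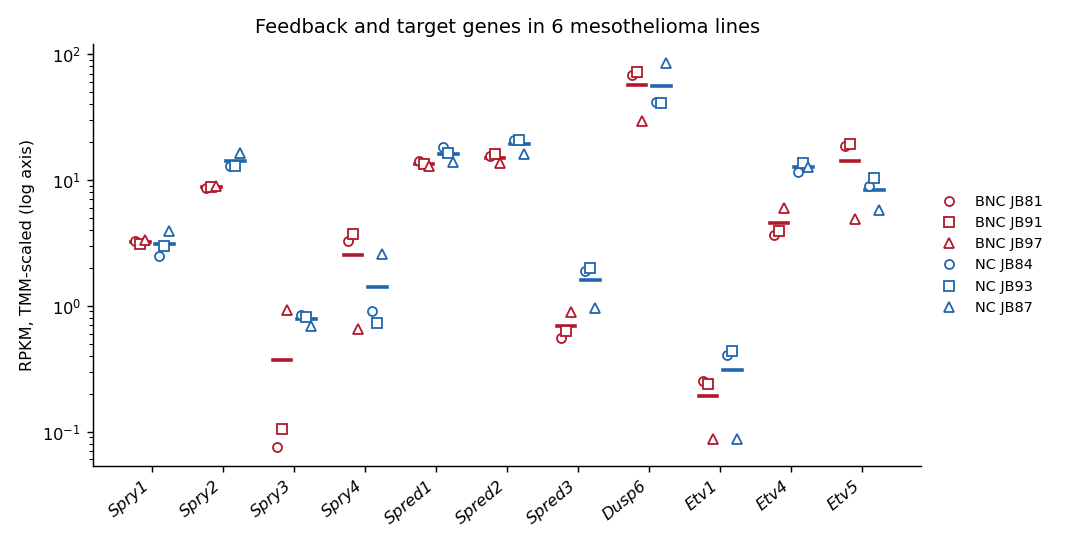
Levels (RPKM, TMM-scaled, log axis) of the 11 feedback and target genes in the 3 BNC lines (red) and 3 NC lines (blue); each marker is 1 line and each horizontal bar the mean of a group. Etv4, Spry2, Spred2, and Spred3 show every NC line above every BNC line, while Dusp6, Spry4, and Etv5 overlap and JB97 lies apart from JB81 and JB91.

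Each of the 4 edgeR calls between BNC and NC lines depended on counting the near-identical lines as separate replicates. With JB81 and JB91 summed, and JB84 and JB93 summed, edgeR called 0 members and 0 genes of the whole table (5 members and 1508 genes at an unadjusted p under 0.05; 0 members were called also without JB81, JB91, JB84, or JB93), and DESeq2 called Fgf5, Fgfr1, Fgfr2, and Etv4 among the members and 6.78% of all genes. The log2 fold changes with the pairs summed were 5.80 for Fgf5, 3.70 for Fgfr2, -0.77 for Spry2, and -1.41 for Etv4. The columns of the lines carry 2 number prefixes, each on lines of both groups, whose meaning is not given in the sources used here. With the prefix as a covariate edgeR called Etv4 (log2 fold change -1.60, adjusted p = 0.0476) and none of the other 3, whose log2 fold changes were 6.68 for Fgf5, 5.04 for Fgfr2, and -0.68 for Spry2, at 2.2% of all genes called.

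Other genes around the pathway were counted from lists, beside 14.2% of all genes called, 5.78% higher and 8.45% lower in BNC lines. Among 16 tested genes for FGF-binding proteins and co-receptors 2 were higher and 2 lower in BNC lines. The smallest p-values belonged to the cell surface glypican Gpc6, which was at 15.4, 15.4, and 10.013 RPKM in JB81, JB91, and JB97 and at 1.62, 1.67, and 2.41 RPKM in JB84, JB93, and JB87 (log2 fold change 2.83, adjusted p = 0.00761, edgeR), and to the adhesion molecule Ncam1 (log2 fold change -1.16, adjusted p = 0.0137, edgeR). Of 11 enzymes that build or trim heparan sulfate, the sugar chain that holds FGF on its receptor, 4 were higher and 1 lower. Ext1, which extends the chain (log2 fold change 1.36, adjusted p = 0.0243, edgeR), and Ndst2, which sulfates it (log2 fold change 0.93, adjusted p = 0.0288, edgeR), led that list. Of 20 relay genes between receptor and ERK 2 were higher and 0 lower: Pik3r1, a subunit of PI3K (log2 fold change 1.31, adjusted p = 0.0132, edgeR), and Mapk3, which encodes ERK1 (log2 fold change 0.73, adjusted p = 0.0406, edgeR). Of 11 other genes that respond to ERK, 0 were higher and 2 lower. These were Errfi1, a feedback inhibitor of the EGF receptor, with a log2 fold change of -2.29 (adjusted p = 0.019, edgeR), and Il17rd, an inhibitor of FGF signaling also known as Sef, with -3.28 (adjusted p = 0.0221, edgeR). Il17rd was at 0.263, 0.264, and 0.588 RPKM in JB81, JB91, and JB97 and at 4.48, 4.57, and 1.51 RPKM in JB84, JB93, and JB87.

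The second comparison set the 9 tumors against the 6 lines. All tumor columns carry 1 number prefix and the columns of the lines others, so tissue and whatever the prefix marks cannot be told apart. In bulk tissue, fewer cells of a type and less RNA per cell cannot be told apart either. Of 31 members tested, 17 (54.8%) were called, against 61.2% of 15675 genes. Of these, 15 (48.4% of the members tested) were higher in tumors, where 39% of all genes were called higher, and 2 were lower, where 22.2% of all genes were called lower. The median log2 difference of the members, tumors minus lines, was 1.45 (1.45 also with Fgf23, which had 0 counts in every line, at its lower bound) and that of all genes was 0.38. Of the 31 members, 23 were also tested between the lines. The others (Fgf1, Fgf9, Fgf10, Fgf11, Fgf12, Fgf16, Fgf23, and Fgfr4) passed the filter through their reads in tumors, and all were called higher. The number of members called higher and this median therefore rest in part on the filter. Of the members, 3 did not overlap between tumors and lines (Fgf1, Fgf9, and Fgf11), against 25.3% of all genes tested. Of 7 leukocyte markers and 4 endothelial markers, all 11 were called higher in tumors, and the summed leukocyte level was from 107 to 414 RPKM in tumors and from 2.54 to 3.81 RPKM in lines. Of 5 fibroblast markers 4 were called higher, with a summed level from 846 to 3945 RPKM in tumors and from 190 to 980 RPKM in lines. The part of these cells in the result was not tested.

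Several ligands that lines lacked were read in tumors. Of 10 ligands tested, 6 were called higher in tumors and 0 lower, against 39% and 22.2% of all genes. Only Fgf2, Fgf5, Fgf7, Fgf18, and Fgf21 had enough reads to be tested in the lines too, and of these Fgf18 alone was called. The rest entered the test through the tumors in which they were read. Fgf1, a ligand that binds every FGF receptor, was between 0.247 and 8.68 RPKM in the 9 tumors with a median of 1.77 RPKM, and at most 0.0424 RPKM in the lines (log2 difference 7.46, standard error 1.08, adjusted p = 5.41e-05, edgeR). It was highest in B45 (8.68 RPKM) and B2 (7.01 RPKM). Fgf9, a ligand of the embryonic mesothelium, was between 0.0588 and 1.93 RPKM in tumors with a median of 0.614 RPKM and had at most 2 counts in any line (adjusted p = 1.12e-04, edgeR). Fgf10, the mesenchymal ligand of lung branching, was between 0.0099 and 1.64 RPKM with its highest level in B2 (adjusted p = 0.00204, edgeR). Fgf16 reached 1.55 RPKM in B19 (adjusted p = 0.00157, edgeR), and Fgf23, a hormone of phosphate balance, reached 1.51 RPKM in tumor 22 and was at least 6.74-fold higher in tumors than the limit of 3 counts per library in the lines (adjusted p = 7.82e-04, edgeR). Fgf18 had the highest level of the ligands in B14 (21.3 RPKM), B19 (11.6 RPKM), and B13 (10.8 RPKM). In the other tumors another ligand was higher. There Fgf18 was 6.97 RPKM in B1 and B45, 5.29 RPKM in B2, 0.769 RPKM in B27, 0.771 RPKM in tumor 22, and 0.269 RPKM in B28. Fgf18 was called higher in tumors (log2 difference 2.01, standard error 0.84, adjusted p = 0.0484, edgeR). This call was lost under most alternatives: with B1, B2, JB81, JB91, JB84, or JB93 left out, without the 4 tumors with the most muscle reads, with the close pairs summed, with either group of lines as the only reference, with scaling by library size only, and with a filter of 1 count in any library (adjusted p between 0.0567 and 0.201, edgeR).

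Fgf5 was uneven among tumors. It was 16.5 RPKM in B1, 11.979 RPKM in B14, 5.02 RPKM in B13, 4.04 RPKM in B19, 3.31 RPKM in B2, 0.293 RPKM in B45, 0.146 RPKM in B27, 0.0687 RPKM in tumor 22, and 0.0182 RPKM in B28. The tumors thus covered the range of both groups of lines (log2 difference 2.94, standard error 1.29, adjusted p = 0.0599, edgeR). B1 had a TMM factor of 0.43, against 0.849 to 1.19 in the other tumors, and a low factor raises the RPKM of a library. Fgf7 was between 0.869 and 5.93 RPKM in tumors with a median of 1.41 RPKM (adjusted p = 0.0693, edgeR). Fgf11 and Fgf12, both intracellular factors, were called higher in tumors. Fgf11 was between 1.74 and 9.36 RPKM in tumors with a median of 3.11 RPKM and at most 0.434 RPKM in lines (log2 difference 5.16, standard error 0.52, adjusted p = 2.25e-06, edgeR).

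Of the receptors, Fgfr1, Fgfr4, and Fgfrl1 were called higher in tumors. Fgfr1 was 55.1 RPKM in B28, 19.4 RPKM in B45, 16.7 RPKM in tumor 22, 13.9 RPKM in B13, 11.9 RPKM in B27, 11.7 RPKM in B14, 9.76 RPKM in B19, 8.47 RPKM in B1, and 6.72 RPKM in B2. All 9 tumors were above every NC line, and all but B28, B45, and tumor 22 lay under the highest BNC line, which is a description of levels (log2 difference to the mean of the groups of lines 2.48, standard error 0.65, adjusted p = 0.00445, edgeR). Against BNC lines alone (51.7% of all genes called) Fgfr1 was not called, and against NC lines alone (43.2% of all genes called) it was. Fgfr2 was lower in tumors than in BNC lines: the tumors were between 0.366 RPKM in B28 and 6.67 RPKM in B2, with a median of 1.38 RPKM, and B2 was the only tumor above the 6.27 RPKM of JB97. It was called lower against BNC lines alone and not against all lines (log2 difference -0.20, standard error 0.62, adjusted p = 0.796, edgeR). Fgfr3 and Fgfr4 were also highest in B2, at 4.94 and 2.31 RPKM, where the summed level of 5 genes of lung epithelium, a list added after the data had been examined, was 77100 RPKM against 2.05 to 85.9 RPKM in the other tumors. Its part in these levels was not tested. Fgfr4 was called without B2 as well. Fgfrl1 was between 5.60 and 28.4 RPKM with a median of 9.92 RPKM and was highest in B1, the library with the fewest counts and the lowest TMM factor, which raises its RPKM (log2 difference 1.47, standard error 0.38, adjusted p = 0.00374, edgeR). Of the adaptors, Frs2 was lower in tumors, between 1.79 and 9.24 RPKM with a median of 3.63 RPKM (log2 difference -1.47, standard error 0.34, adjusted p = 0.00187, edgeR), and Frs3 was higher, between 0.418 and 1.84 RPKM with a median of 0.925 RPKM (log2 difference 1.45, standard error 0.37, adjusted p = 0.00381, edgeR).

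Of the 11 feedback and target genes, 3 were called higher in tumors, 1 was called lower, and 7 did not pass, beside 39% of all genes called higher and 22.2% lower. Spry1 (log2 difference 1.23, adjusted p = 0.0281, edgeR), Spred3 (1.91, adjusted p = 0.0313), and Etv1 (2.02, adjusted p = 0.0288) were higher, and Spred2 (-1.20, adjusted p = 0.0253) was lower. With the close pairs of lines summed none of the 4 was called (edgeR adjusted p = 0.104, 0.0949, 0.0678, and 0.0585 in the same order). The other feedback genes spread widely among tumors. Dusp6 was 231 RPKM in B28, 196 RPKM in tumor 22, and 68.9 RPKM in B27, and between 18.0 and 31.6 RPKM in the other 6 tumors. Etv4 was 42.0 RPKM in B28, 30.3 RPKM in tumor 22, and 8.84 RPKM in B27, and between 0.640 and 3.31 RPKM in the other 6. Spry4 was 46.0 RPKM in B28, 28.2 RPKM in tumor 22, and 6.38 RPKM in B27, and between 0.593 and 2.91 RPKM in the other 6. This pattern was not limited to the members. Of the other ERK-response genes listed, Dusp5, Fosl1, Phlda1, Myc, and Errfi1 were also higher in each of these 3 tumors than in the other 6. Dusp5 was 47.7, 72.1, and 61.7 RPKM in B28, tumor 22, and B27 and at most 7.08 RPKM elsewhere. Dusp4, Egr1, Fos, Ier3, Ccnd1, and Il17rd overlapped. Among the ligands in these 3 tumors, chosen after their values had been seen, Fgf5 and Fgf18 were low, Fgf7 was at its highest of the 9 in B27 (5.93 RPKM), and Fgf23 at its highest in tumor 22 (1.51 RPKM). Fgf1 was at 4.09, 0.754, and 1.18 RPKM in B28, tumor 22, and B27, and in B28 it was the ligand with the highest level. The mesothelial marker Msln was at 14.2, 33.3, and 46.8 RPKM in B28, tumor 22, and B27 and between 135 and 472 RPKM in the other 6. Wt1, Upk1b, and Upk3b were also lower in these 3 tumors than in each of the other 6. Krt8, Krt18, Krt19, Lrrn4, and Pdpn overlapped, and Krt18 was highest in tumor 22 (352 RPKM) and B28 (304 RPKM). The part of these markers in the levels of the feedback genes was not tested. In B28, Fgfr1 was at its highest level of the 9 tumors, while in B27 it was at 11.9 RPKM, the median of the 9. Spry2 spread less, and was 24.3 RPKM in B28, 18.2 RPKM in tumor 22, 15.8 RPKM in B45, and 15.5 RPKM in B27, and between 5.20 and 12.6 RPKM in the other 5. Etv5 was 18.6 RPKM in B28 and 13.9 RPKM in tumor 22 but 4.57 RPKM in B27, the lowest of all. Spred1 was 50.9 RPKM in B28 and 31.9 RPKM in tumor 22 and between 8.62 and 14.956 RPKM in the other 7.

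**Figure D4:**
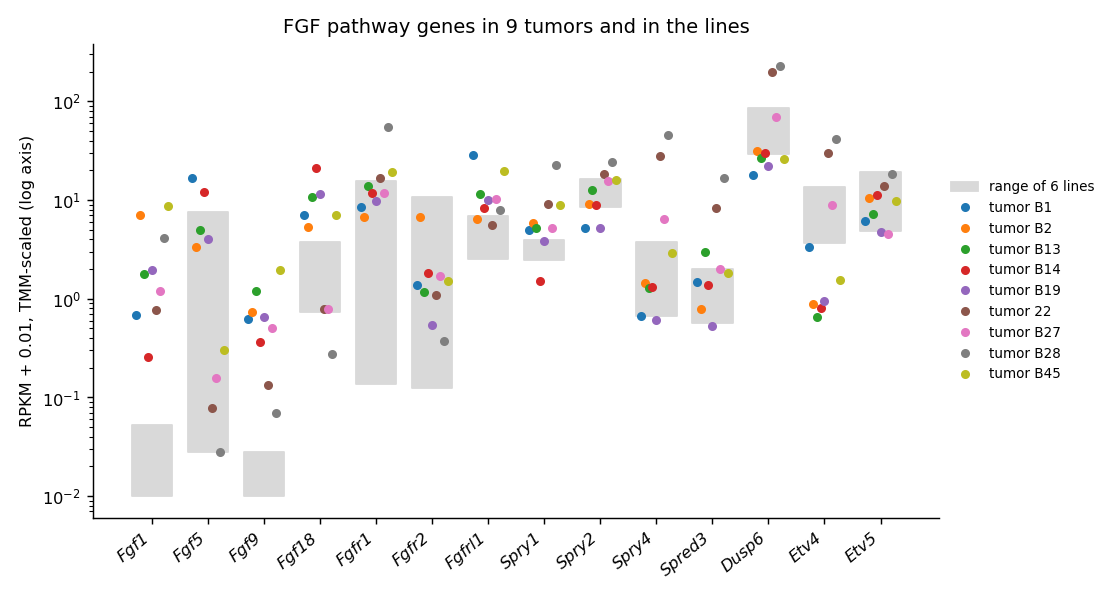
Levels (RPKM plus 0.01, TMM-scaled, log axis) of 14 members in the 9 tumors; each point is 1 tumor and each grey bar spans the 6 lines. Fgf1 and Fgf9 lie above the lines in every tumor, and B28 and tumor 22 lie at the top of Spry4, Dusp6, and Etv4 and at the bottom of Fgf5.

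The third comparison asked whether feedback genes followed the receptors across the 9 tumors. The 12 pairs of Fgfr1 or Fgfr2 with Spry1, Spry2, Spry4, Dusp6, Etv4, and Etv5 were tested with a two-sided exact permutation test on log2(CPM + 1), with Benjamini-Hochberg adjustment over the 12 pairs. None of the 12 passed 0.05 after adjustment (5 had an unadjusted permutation p of r under 0.05). All 6 pairs with Fgfr1 had positive coefficients, between 0.63 for Etv5 and 0.79 for Spry4, and all 6 pairs with Fgfr2 had negative ones, between -0.46 and -0.075. Without the 2 tumors farthest from the median of Fgfr2 (B2 and B28), 5 of these 6 turned positive (from 0.0967 to 0.43), so their sign rested on those tumors. For Fgfr1 and Spry2, Pearson's r was 0.784 (permutation p = 0.0063, adjusted p = 0.0527) and Spearman's rho was 0.867 (permutation p = 0.0045, adjusted p = 0.0541). Without B2 and B28, the tumors farthest from the median of Fgfr1, r was 0.866 (permutation p = 0.0137). For Fgfr1 and Spry4, r was 0.786 (permutation p = 0.0088, adjusted p = 0.0527) and rho 0.683 (permutation p = 0.0503, adjusted p = 0.266), and r was 0.634 without those tumors (permutation p = 0.124). For Fgfr1 and Dusp6, r was 0.71 (permutation p = 0.0294, adjusted p = 0.0988) and rho 0.483 (permutation p = 0.194, adjusted p = 0.394), and r was 0.464 without those tumors (permutation p = 0.288). For Fgfr1 and Etv4, r fell from 0.664 (permutation p = 0.0412, adjusted p = 0.0988; rho 0.467, permutation p = 0.213, adjusted p = 0.394) to 0.219 without those tumors (permutation p = 0.646). The coefficients of Spry4, Dusp6, and Etv4 therefore rested in part on those tumors. The adjusted p of r was 0.0988 for Fgfr1 and Spry1, 0.114 for Fgfr1 and Etv5, and between 0.386 and 0.854 for the pairs with Fgfr2, all from the permutation test. When libraries were scaled by their totals only, 5 of the 12 pairs passed, and 0 did so when B1, in which 24.7% of reads fell on Gm42418, was left out as well.

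**Figure D5:**
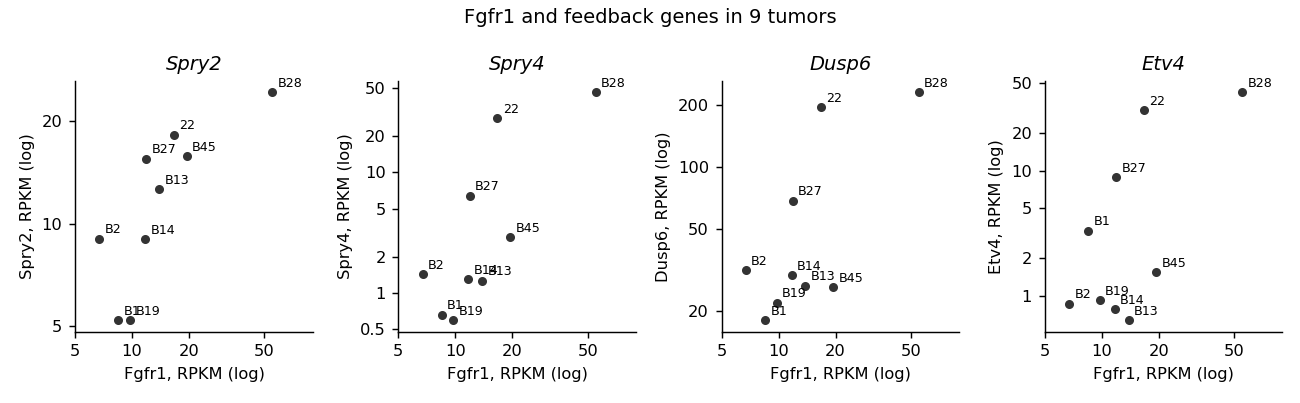
Levels (RPKM, TMM-scaled, both axes log) of Fgfr1 and of 4 feedback genes in the 9 tumors; each point is 1 tumor with its name. B28 has the highest level on every axis, and tumor 22 and B27 lie above tumors of similar Fgfr1 level in Spry4, Dusp6, and Etv4.

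Genes of the lists around the pathway were called in both directions between tumors and lines, beside 39% of all genes called higher and 22.2% lower. Of 17 tested FGF-binding and co-receptor genes 4 were higher and 2 lower in tumors, led by the syndecan Sdc3 (log2 difference 2.73, adjusted p = 2.59e-05, edgeR) and the glypican Gpc1 (2.76, adjusted p = 6.09e-05). Of 11 heparan sulfate enzymes 3 were higher and 5 lower, led by Glce, an epimerase of the chain (-3.08, adjusted p = 1.73e-05, edgeR), and Ndst2 (1.23, adjusted p = 2.99e-04). Of 20 relay genes 2 were higher and 9 lower, led by the phosphatase gene Ptpn11 (-1.16, adjusted p = 9.33e-05, edgeR) and the ubiquitin ligase gene Cbl (-2.72, adjusted p = 1.18e-04). Of 11 other ERK-response genes 3 were higher and 2 lower, led by Ier3 (3.23, adjusted p = 0.00223, edgeR) and Myc (-1.14, adjusted p = 0.00785).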

How the data were processed

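Poly-A-enriched RNA of 6 lines and 9 tumors was sequenced by the authors as single-end reads of 65 bases, mapped to mm10 with TopHat, filtered by mapping quality, and counted per gene with HTSeq-count. The deposited values are raw counts per Ensembl gene. A strand setting of the counting is not given in the sources used here, so overlapping and antisense genes are uncertain. Lines were assigned to BNC or NC by their names in the study's own supplementary sheet. The 9 other columns were taken as tumors, since 5 of them carry names that tumor DNA columns share. The DNA table (14 columns) and the chromatin profiles were not used here.

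The members, lists, and tests were chosen with earlier results of these data known. Members were given per line by a rule: all receptors, adaptors, and feedback genes other than Spry3 and Spred3, and the ligands called or at a group mean of at least 1 RPKM in lines. Klb is given by its highest count, and the intracellular Fgf13 was added after its values had been seen. In each other list the 2 genes with the smallest p are named. Other genes are given by range, and those tumor values of single libraries were chosen after they had been seen. Exon lengths and symbols come from GENCODE M21 on GRCm38, and 98.6% of identifiers had a symbol.

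The counts were tested with edgeR 4.0.16 in R 4.3.3 (filterByExpr with a minimum count of 10, TMM, glmQLFit, glmQLFTest) and called at a Benjamini-Hochberg adjusted p under 0.05. Tumors were compared with the mean of both groups of lines. DESeq2 1.42.0 was an alternative. A standard error is the log2 fold change over the square root of F. On simulated counts of the lines (12230 genes), edgeR called 53% of genes changed 4-fold and 88% of genes changed 16-fold, with 6 false calls among 12030 unchanged genes. DESeq2 called 79% and 97%, with 80 false calls. In the simulated tumor comparison (15460 genes) edgeR called 60% and 89%, with 7 false calls among 15263. All simulated libraries were drawn independently of each other, whereas the real lines held near-identical pairs. These rates therefore do not give the rates of detection or false calls in the real comparisons. Figures used matplotlib 3.10.9 and Python 3.11.15.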

Additional observations from a re-analysis of the deposited data

Results flagged for a closer look

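The highest or lowest of the 9 tumors stood apart in 6 of 36 members with at least 10 counts in a tumor, by a gap to the next tumor of more than 0.493 of the whole range on the log2(CPM + 1) scale. This limit flags about 1 in 20 groups of normally distributed values. Members at or near 0 counts in most tumors, such as Fgf6, Fgf20, and Klb, are not of that kind. The 6 flags therefore cannot be set against that rate. The tumors concerned were B28, B45, and B14. Fgfr1 was 55.1 RPKM in B28, and the next tumor had 19.4 RPKM. Fgf11, an intracellular factor, was 9.36 RPKM in B28 against 4.08 RPKM in the next tumor. Klb was 2.16 RPKM in B45 with 215 counts, and the next tumor had 0.0449 RPKM. In B45 the summed level of 4 adipocyte genes, a list added after the data had been examined, was 1812 RPKM against 0.148 to 264.6 RPKM in the other tumors. Fgf6 was 0.255 RPKM in B45 (26 counts) and had 0 counts in every other tumor, and Fgf20 was 0.2998 RPKM in B45 on 11 counts. The summed level of 4 muscle genes in B45 was 11720 RPKM, and it was between 4151 and 17220 RPKM in B1, B13, and B19. Fgf8 was 1.22 RPKM in B14 (39 counts) against 0.237 RPKM in the next tumor. The part of these other tissues in the values was not tested.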

How the results depend on the processing

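Between BNC and NC lines the number of members called was 4 of 23. It was 0 at an adjusted p under 0.01 and more than 2-fold change, 0 with the close pairs summed, 0 with the replicate block, and 1 (Etv4) with the column prefix as a covariate. With 1 line left out it was between 0 and 11: 0 without JB81, JB91, JB84, or JB93, 7 without JB97, and 11 without JB87. Leaving out JB97 or JB87 reduces its group to a near-identical pair. DESeq2 called 6, and 3 or 4 were called under the other scalings and filters, by DESeq2 with the pairs summed, and with all 15 libraries in the fit. In the last of these the members called were Fgf11, Fgfr1, and Fgfr2, and Fgf5 (adjusted p = 0.102), Spry2 (0.442), and Etv4 (0.607) were not. The replicate block used the numbers in the study's sheet, where same-numbered lines did not deviate together in every pair (r from -0.086 to 0.128), so the lines share only a number. Over all genes DESeq2 called 3686 against 1761 by edgeR, the block and the summed pairs called 0, the covariate called 272, and with 1 line left out the number was between 15 and 6800. In the comparison of tumors with lines 17 of 31 members were called, 8 of 16 when at least 10 counts were required in every library (fewer members tested), 12 to 20 under the other alternatives, and 14 to 17 with 1 line left out. The tests that left out tumors B1, B2, or the 4 tumors with the most muscle reads were added after the data had been examined and called 17, 16, and 15. In the relations across tumors 0 of 12 pairs passed, 5 with scaling by library size only, and 0 without B28 (smallest adjusted p = 0.505) or without B1 (0.129). Scaling by library size only moved the median log2 difference of all genes from -0.0023 to -0.14 between lines and from 0.38 to 0.28 between tumors and lines. Of single genes, no called direction was reversed under any alternative. The cause of these changes was not tested. Depth limited Fgfr4, Klb, and 9 ligands in lines, which were at or under 3 counts.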
